A study of Caenorhabditis elegans with 15 samples.

Results

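Whole Caenorhabditis elegans that had lived on E. ulmoides bark extract until day 12 of adulthood were compared with worms of the same age that had received the solvent DMSO alone. The comparison rests on 10 of the 15 libraries of the series, 5 with E. ulmoides and 5 with DMSO, chosen by their labels, and it is described over the 12951 of 46906 genes that had at least 1 FPKM in at least 5 of these 10 libraries. FPKM gives the sequenced fragments of a gene relative to the gene's length and to the total of the library. The E. ulmoides group received 30 µg/mL of extract dissolved in DMSO (0.05% final) in the agar and in the bacterial food, and the DMSO group received 0.05% DMSO in both. All worms were of the wild-type strain N2 and were moved to treatment at the L4 larval stage. They were kept at 22 °C on E. coli with 2 mg/mL carbenicillin, an antibiotic, and 100 µM FUdR, a nucleoside analogue that keeps eggs from developing, so neither group is free of these agents. Each tube held some 3000 to 4000 worms and gave 1 library, labelled as a biological replicate. The other 5 libraries came from worms on 30 µg/mL of C. chinensis extract with the same solvent and entered as a further group.

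Eucommia ulmoides is a tree whose bark is used in traditional Chinese medicine. Worms feed on bacteria, which they break down in the gut with secreted lysozymes, saposin-like pore formers and aspartyl and cysteine proteases made by intestinal cells. Worms have no antibodies, and the same secreted proteins, together with C-type lectins and small antimicrobial peptides of the epidermis, are known as their innate defence. The gut lumen is lined by a brush border that rests on a sheet of intestine-specific intermediate filaments.

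Library totals, estimated from the smallest steps of the FPKM, ranged from 39567765 to 87238546 fragments with E. ulmoides (median 44644089) and from 37920765 to 82839505 with DMSO (median 45859124). On the first principal component, which held 26.2% of the variance among the 10 libraries, the E. ulmoides libraries lay between -16.9 and -3.9 and the DMSO libraries between 2.5 and 23.3. DMSO replicate 2, with the most fragments of its group, lay nearest to the E. ulmoides libraries at 2.5, and DMSO replicate 1 lay farthest from them at 23.3. Marker lists for muscle, pharynx, neurons, intestine, hypodermis, germ line, oocytes and sperm were all expressed. In RNA from whole worms, fewer cells of a type and less RNA per cell cannot be told apart.

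After the scaling between libraries, which itself centres the fold changes, 49.1% of the genes tested had a log2 fold change above 0 and the median was -0.003. Without it the median was -0.0733. With a Benjamini-Hochberg threshold of 0.05 on the p of limma and a change of more than 1.5-fold, 51 genes were called higher (0.394% of the genes tested) and 14 lower (0.108%) with E. ulmoides than with DMSO, 0.502% in all. The 51 higher genes had log2 fold changes between 0.61 and 2.13 (median 0.83), and 12 of them were past 2-fold. The 14 lower genes had log2 fold changes between -1.22 and -0.59 (median -0.77), and 1 was past 2-fold. Dropping the limit on fold gave 86 higher (0.664%) and 42 lower genes (0.324%), or 0.988% of those tested. An unadjusted p under 0.05 was reached by 2201 genes (17%). Without further scaling of the FPKM between libraries the calls were 23 higher and 26 lower, so that 46.9% of calls were higher, against 78.5% with the scaling.

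**Figure D1:**
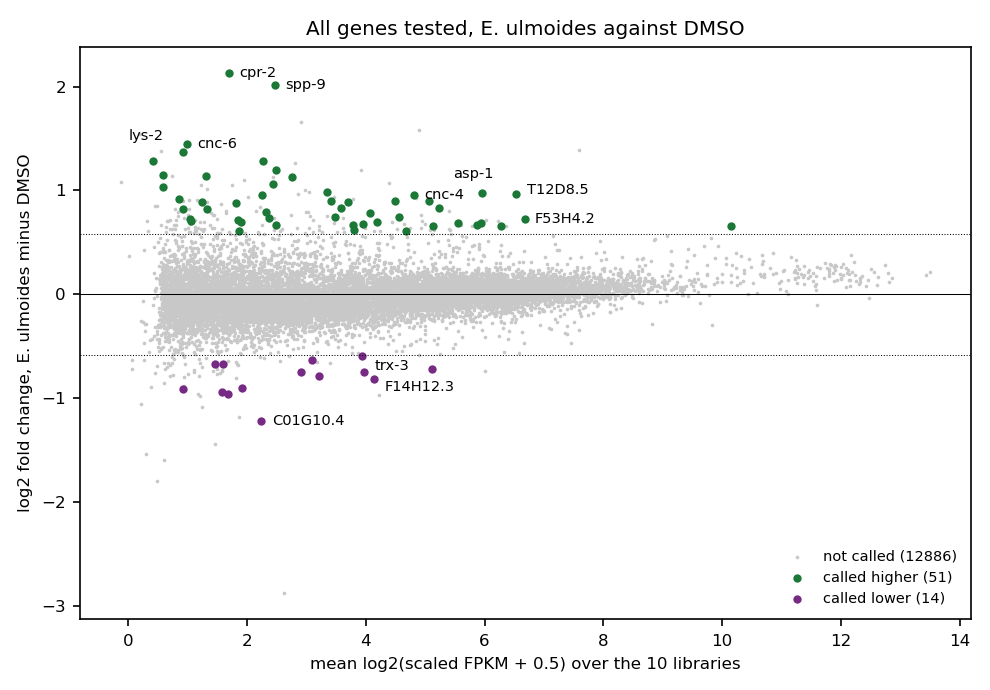
Log2 fold change of E. ulmoides minus DMSO (vertical axis) against the mean log2(scaled FPKM + 0.5) over the 10 libraries (horizontal axis), 1 point per gene tested. Green points are the 51 genes called higher, purple points the 14 called lower and grey points the genes not called; dotted lines mark a 1.5-fold change, and cpr-2 and spp-9 lie highest among the called genes at 2.13 and 2.01.

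The number of calls rested on single libraries. Leaving out E. ulmoides replicates 1 to 5 one at a time gave 20, 23, 44, 13 and 33 higher genes and 18, 9, 13, 8 and 10 lower genes. Leaving out DMSO replicates 1 to 5 gave 10, 117, 20, 26 and 22 higher genes and 10, 27, 11, 9 and 12 lower genes. Without the 4 libraries with the most fragments (E. ulmoides replicates 1 and 3, DMSO replicate 2 and C. chinensis replicate 4), a setting chosen after seeing the data, 64 genes were higher and 20 lower, and 36 of the 51 and 12 of the 14 remained. DMSO replicate 2 was the highest DMSO library for 41 of the 51 higher genes, and DMSO replicate 1 was the lowest for 29 of them. Of the higher genes 8 kept their call in all 10 of these leave-one-out fits: cpr-2, cnc-6, T12D8.5, ftn-1, F49H12.7, B0024.4, F53H4.2 and F59B1.2. Of the lower genes 6 did so: C01G10.4, H02F09.3, C01G10.17, F14H12.3, R07C12.1 and H43E16.1. Every other call named here was lost in at least 1 of them.

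**Figure D2:**
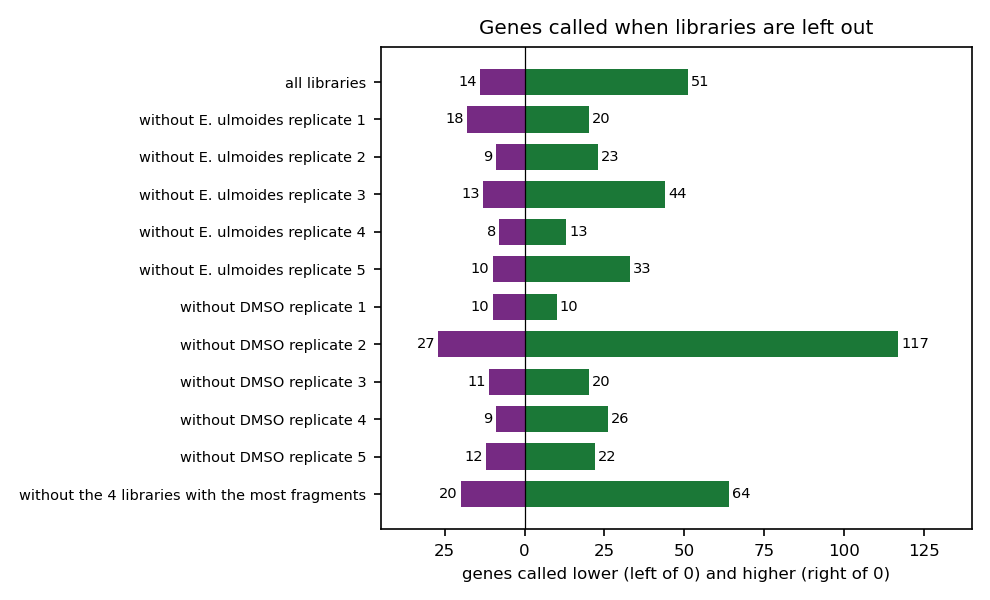
Number of genes called higher (green, right of 0) and lower (purple, left of 0) with E. ulmoides than with DMSO, for all libraries and with libraries left out. The higher calls range from 10 without DMSO replicate 1 to 117 without DMSO replicate 2, beside 51 with all libraries.

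The gene with the largest called change was cpr-2 (chromosome V, 16532936 to 16534100 of WBcel235, minus strand), which encodes a cathepsin B-like cysteine protease. Its FPKM were 9.27, 6.6, 5.33, 5.84 and 3.49 in E. ulmoides replicates 1 to 5, against 0.411, 2.42, 0.919, 0.917 and 1.05 in DMSO replicates 1 to 5. Every E. ulmoides library was above every DMSO library, and cpr-2 averaged 6.11 ± 2.11 FPKM with E. ulmoides and 1.14 ± 0.755 with DMSO (SD, n = 5 each). The log2 fold change was 2.13 (SE 0.34, adjusted p = 0.0118).

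Of 16 cathepsin B and L type cysteine proteases in the table, 13 were tested, 12 of them had a log2 fold change above 0 (median 0.21), and cpr-2 was the 1 called. Its relative cpr-1 was at a higher level, with FPKM of 51.65, 52.4, 31.2, 54.2 and 52 with E. ulmoides, against 6.30, 45.6, 38.2, 15.2 and 6.69 with DMSO. All but 1 of the E. ulmoides libraries were alike and replicate 3 was lower, while the DMSO libraries split, with replicates 1, 4 and 5 low and replicates 2 and 3 within the range of the E. ulmoides group. The log2 fold change of cpr-1 was 1.58 (SE 0.44), which was not called (adjusted p = 0.0837).

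Saposin-like proteins, a family that includes pore-forming antibacterial proteins, held the second largest called change. The gene spp-9 (chromosome X, 11487784 to 11488203) had FPKM of 13.5, 8.15, 9.94, 8.52 and 10.5 with E. ulmoides, against 1.01, 2.81, 1.79, 6.44 and 1.41 with DMSO. The groups did not overlap, although DMSO replicate 4 came close to the lowest E. ulmoides library. The log2 fold change was 2.01 (SE 0.44, adjusted p = 0.038), and the call held in 2 of the 10 leave-one-out fits. The gene spp-8 also rose, by 0.83 on the log2 scale (adjusted p = 0.0268), with 12.5 to 17.1 FPKM in E. ulmoides libraries and 6.12 to 12.59 FPKM in DMSO libraries. Of 23 saposin-like genes, 17 were tested, 15 had a log2 fold change above 0 (median 0.36) and these 2 were called. The summed FPKM of the 23 genes overlapped, at 516 to 686 in E. ulmoides libraries and 404 to 589 in DMSO libraries.

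Lysozymes, enzymes that cut bacterial cell walls, had a median log2 fold change of 1.01 over the 8 tested of 16 in the table, and 7 of the 8 were above 0. The summed FPKM of the 16 genes overlapped, at 242 to 391 in E. ulmoides libraries and 79.0 to 264 in DMSO libraries. Only lys-2 was called, at 1.37 (SE 0.30, adjusted p = 0.0374) and in 1 of 10 leave-one-out fits. Its FPKM were 2.90, 3.4, 1.92, 1.71 and 2.27 with E. ulmoides, against 0.329, 1.68, 0.384, 0.71 and 0.635 with DMSO, with no overlap. In the DMSO group lys-2 reached the minimum of 1 FPKM in replicate 2 alone, so it entered the test through its E. ulmoides libraries. The most abundant lysozyme here, lys-7, had FPKM of 324, 280, 203, 346 and 329 with E. ulmoides, against 50.7, 219, 181, 161 and 67.8 with DMSO. DMSO replicates 1 and 5 were low and replicate 2 was above the lowest E. ulmoides library. The log2 fold change of lys-7 was 1.39 (SE 0.33) and just missed the threshold (adjusted p = 0.0539). For lys-1 the log2 fold change was 0.96 (adjusted p = 0.145).

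Aspartyl proteases, the cathepsin D-like digestive enzymes of the gut and lysosome, gave 2 calls. All 8 tested members of 19 had log2 fold changes above 0 (median 0.72), and asp-6 passed on adjusted p but not on fold. The summed FPKM of the 19 genes overlapped, at 633 to 858 in E. ulmoides libraries and 429 to 664 in DMSO libraries. The gut protease asp-1 had FPKM of 98.2, 85.3, 67.7, 77.3 and 78.6 with E. ulmoides, against 29.2, 75.3, 44.5, 51.7 and 28.9 with DMSO. Only DMSO replicate 2 reached into the E. ulmoides range, and the log2 fold change was 0.98 (SE 0.22, adjusted p = 0.0474; called in 1 of 10 leave-one-out fits). The gene asp-5 had 22.4 to 35 FPKM in E. ulmoides libraries and 12.4 to 20.9 FPKM in DMSO libraries, with no overlap, and rose by 0.90 on the log2 scale (adjusted p = 0.029). For asp-6, the most abundant member named here at 454 to 613 FPKM with E. ulmoides and 322 to 466 FPKM with DMSO, the log2 fold change was 0.53 (adjusted p = 0.0168).

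Caenacins are small antimicrobial peptides of the epidermis. Of 11 members 9 were tested and 2 called, and 7 of the 9 were above 0 (median 0.43). The summed FPKM of the 11 genes overlapped, at 58.6 to 85.2 in E. ulmoides libraries and 32.4 to 68.5 in DMSO libraries. The gene cnc-6 (chromosome III, 1763522 to 1764902) had FPKM of 3.78, 1.86, 2.56, 2.99 and 2.1 with E. ulmoides, against 0.332, 1.2, 0.903, 0.469 and 0.748 with DMSO. The groups did not overlap, and its log2 fold change was 1.45 (SE 0.24, adjusted p = 0.0121). In the DMSO group cnc-6 reached the minimum of 1 FPKM in replicate 2 alone, so it entered the test through its E. ulmoides libraries. The more abundant cnc-4 had FPKM of 37.7, 31.4, 39, 42.1 and 31.6 with E. ulmoides, against 13.1, 32.2, 20.4, 19.5 and 16.07 with DMSO. Here DMSO replicate 2 alone reached the E. ulmoides range, and the log2 fold change was 0.96 (SE 0.18, adjusted p = 0.0172). In the neighbouring peptide family of the nlp-29 cluster, all 5 tested members of 6 lay between 0.41 and 0.64 (median 0.62) and none was called. The 2 with the smallest p were nlp-31 at 0.64 (adjusted p = 0.0641) and nlp-34 at 0.62 (adjusted p = 0.115).

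C-type lectins, a large family of sugar-binding proteins, lay on both sides of 0. Of 264 genes 70 were tested, 38 were above 0 and 32 below (median 0.01), and 5 were called higher. The largest was clec-258 at 1.28 (SE 0.27, adjusted p = 0.0337), a weak gene with 29 to 59 fragments per E. ulmoides library and 1 to 40 per DMSO library. Its FPKM were 1.32, 2.17, 1.15, 1.36 and 1.57 with E. ulmoides, against 0.085, 0.941, 0.694, 0.360 and 0.0338 with DMSO. It passed the minimum of 1 FPKM in the E. ulmoides libraries alone, so that the groups could not overlap. The others named are clec-9 at 0.82 (adjusted p = 0.0168), clec-65 at 0.79 (adjusted p = 0.0374) and clec-7 at 0.73 (adjusted p = 0.0365).

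Several smaller defence lists held called genes. The thaumatin-like gene thn-1 rose by 0.70 on the log2 scale (adjusted p = 0.029), the 1 call among 6 tested genes of the abf and thn families (median 0.28, 3 above 0 and 3 below). The infection response gene irg-5 had FPKM of 6.95, 8.39, 7.48, 10.7 and 11.6 with E. ulmoides, against 2.36, 7.64, 4.26, 5.44 and 2.32 with DMSO. DMSO replicate 2 was the library that overlapped, and the log2 fold change was 1.13 (SE 0.23, adjusted p = 0.0268). The PMK-1 kinase is a p38 MAP kinase of the immune response. Of 9 listed PMK-1 targets in the table only 4 were tested, and irg-5 and lys-2 were the 2 called. Over all genes tested 0.394% were called higher. The calls held in 4 (irg-5) and 1 (lys-2) of the 10 leave-one-out fits. All 13 tested nspc genes of 20, which encode nematode-specific secreted peptides, were above 0 (median 0.63), and none was called. The 2 with the smallest p were nspc-13 at 0.92 (adjusted p = 0.075) and nspc-14 at 0.93 (adjusted p = 0.0799). Among 11 tested fip and fipr peptide genes 9 were above 0 (median 0.46) and none was called, with fip-6 at 1.14 (adjusted p = 0.0508) and fipr-29 at -0.75 (adjusted p = 0.0539).

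**Figure D3:**
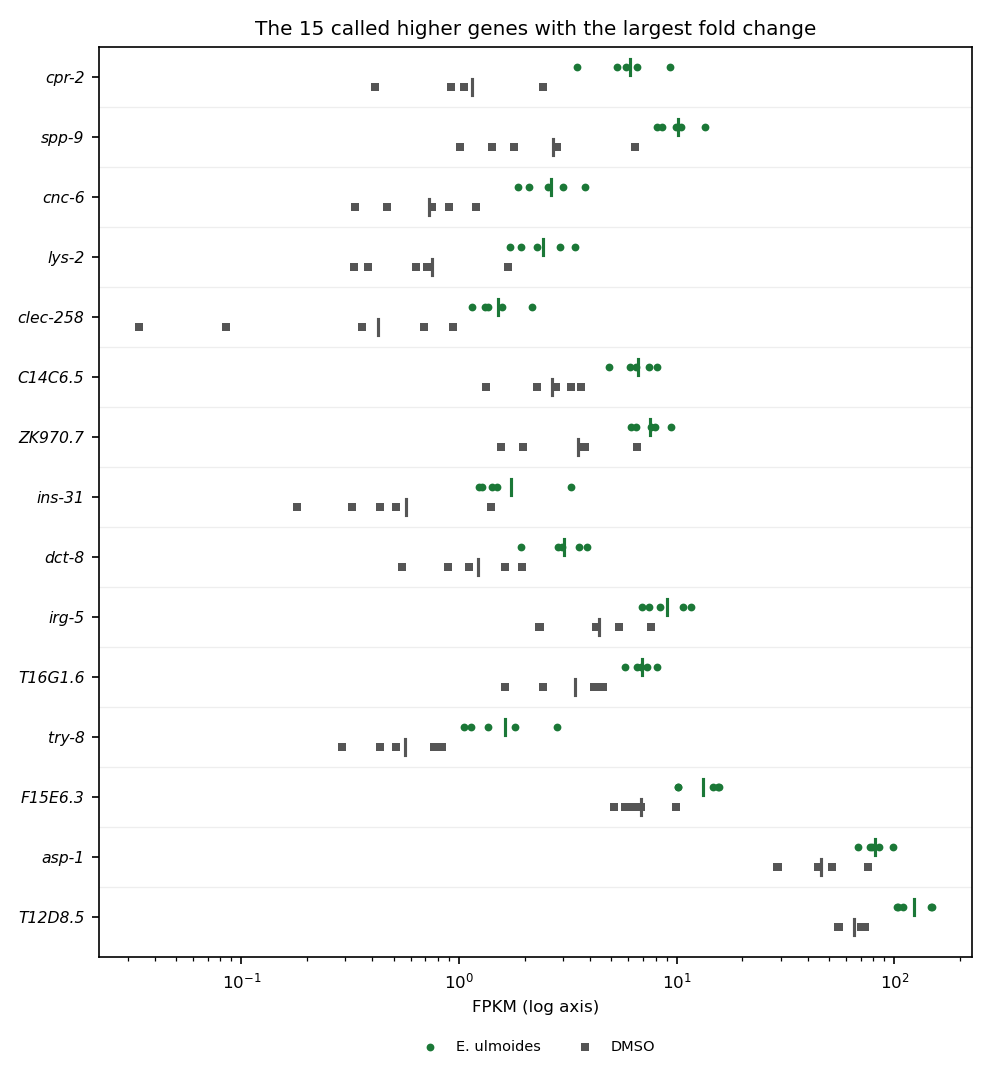
FPKM in each library (horizontal log axis) of the 15 called higher genes with the largest fold change, with E. ulmoides libraries as green circles above the DMSO libraries as grey squares and short bars at the group means. In 10 of the 15 genes the E. ulmoides and DMSO points do not overlap, as for cpr-2 (in clec-258 and try-8 the FPKM minimum fixed this), and in asp-1, dct-8, ins-31, irg-5 and ZK970.7 the highest DMSO library lies within the E. ulmoides range. In the DMSO group cnc-6 and lys-2 reached that minimum in replicate 2 alone, and ins-31 in replicate 5 alone.

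Other called genes with changes past 2-fold had varied roles. The insulin-like peptide gene ins-31 had FPKM of 1.27, 1.42, 1.24, 3.25 and 1.5 with E. ulmoides, against 0.431, 0.514, 0.180, 0.321 and 1.4 with DMSO. E. ulmoides replicate 4 stood high and DMSO replicate 5 fell within the E. ulmoides range, and the log2 fold change was 1.15 (SE 0.26, adjusted p = 0.0461). In the DMSO group ins-31 reached the minimum of 1 FPKM in replicate 5 alone, so it entered the test through its E. ulmoides libraries. It was the 1 called of 24 tested insulin-like genes of 40 (median -0.01). The trypsin-like protease gene try-8 rose by 1.03 on the log2 scale (SE 0.19, adjusted p = 0.0168). As for clec-258, it passed the FPKM minimum in the E. ulmoides libraries alone, so its groups could not overlap. In the annotation try-8 overlaps the gene F25E5.3. The gene dct-8, named as lying downstream of the FOXO factor DAF-16, was at 1.14 (adjusted p = 0.0477). The genes C14C6.5 at 1.28 (adjusted p = 0.0172), ZK970.7 at 1.2 (adjusted p = 0.0477) and T16G1.6 at 1.06 (adjusted p = 0.0168) carry sequence names only, and the next in size was F15E6.3 at 0.98 (adjusted p = 0.0204).

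Ferritin stood among the firmest calls. The gene ftn-1 encodes a ferritin heavy chain, the iron-storage protein, and is expressed in the intestine. Its FPKM were 48.2, 35.4, 38.8, 51.9 and 39.9 with E. ulmoides, against 17.8, 27.6, 25.3, 30.3 and 19.7 with DMSO, with no overlap. The log2 fold change was 0.90 (SE 0.16, adjusted p = 0.0147). It was the 1 called of 16 tested genes of the list for metallothionein, ferritin and metal transport (median 0.12). The metallothionein gene mtl-1, which binds heavy metals, was at 0.51 (adjusted p = 0.145).

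Among all genes, the smallest p values belonged to H43E16.1, T12D8.5, H02F09.3, F14H12.3 and F53H4.2. T12D8.5 (chromosome III, 13625972 to 13626786) had FPKM of 149, 103, 109, 148 and 103.7 with E. ulmoides, against 55.9, 73.5, 72.0, 70.2 and 55.1 with DMSO. The groups lay well apart, and the log2 fold change was 0.97 (SE 0.13, adjusted p = 0.00477). This gene overlaps taf-9 in the annotation, and the library kit does not mark strand, so reads of the overlap cannot be told apart. F53H4.2 had 107 to 149 FPKM in E. ulmoides libraries and 69.3 to 90.2 FPKM in DMSO libraries, with a log2 fold change of 0.73 (SE 0.11, adjusted p = 0.00912), and it overlaps F53H4.6.

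Transthyretin-related genes encode secreted proteins of a family expanded in nematodes. Of 59 such genes 54 were tested, 35 were above 0 and 19 below (median 0.19), 4 were called higher and 1 lower. The higher ones were ttr-18 at 0.83 (adjusted p = 0.039), ttr-42 at 0.69 (adjusted p = 0.0168), ttr-32 at 0.68 (adjusted p = 0.0438) and ttr-41 at 0.66 (adjusted p = 0.0477). Of these, only ttr-42 kept all E. ulmoides libraries (62.2 to 87.7 FPKM) above all DMSO libraries (40.9 to 50.7 FPKM). In the annotation ttr-42 overlaps H01M10.1 and ttr-32 overlaps R13A5.7. The lower one, ttr-23, had 9.54 to 13.3 FPKM with E. ulmoides and 14.6 to 20.4 FPKM with DMSO (log2 fold change -0.59, adjusted p = 0.0343).

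Lipid handling genes gave 1 call. The acyl-CoA dehydrogenase gene acdh-1, known for its response to propionate and vitamin B12 supply, had FPKM of 22.6, 22.0, 16.9, 27 and 19.3 with E. ulmoides, against 10.7, 17.1, 11.5, 14.9 and 14.8 with DMSO. DMSO replicate 2 was just above the lowest E. ulmoides library, and the log2 fold change was 0.70 (SE 0.13, adjusted p = 0.0177). It was the 1 called of 47 tested genes of beta-oxidation, whose median was -0.01. The fatty acid and retinol binding family far had 7 tested members of 8, all between 0.20 and 1.27 (median 0.37) and none called. Of these far-3 had FPKM of 12.5, 8.76, 7.53, 12.35 and 8.4 with E. ulmoides, against 1.87, 6.35, 2.99, 7.46 and 3.42 with DMSO. The groups of far-3 did not overlap, but its log2 fold change of 1.27 (SE 0.33) was not called (adjusted p = 0.0713). In the annotation far-3 overlaps the gene far-5. The more abundant member far-1, the other one named here, was at 0.37 (adjusted p = 0.116). The 4 tested yolk protein genes were above 0 (median 0.35) and none was called, with vit-5 at 0.66 (adjusted p = 0.201) and vit-2 at 0.34 (adjusted p = 0.401).

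The detoxification and chaperone genes described next gave no calls. Of 33 tested cytochromes P450, 30 were above 0 (median 0.16) and none was called, with cyp-37B1 at 0.73 (adjusted p = 0.053) and cyp-34A9 at 0.94 (adjusted p = 0.0558). Of 37 tested UDP-glucuronosyltransferase genes, 31 were above 0 (median 0.12) and none was called, with ugt-12 at 0.58 (adjusted p = 0.0667) and ugt-62 at 0.50 (adjusted p = 0.0906). The mitochondrial chaperonin gene hsp-60 had 59.0 to 71.1 FPKM with E. ulmoides and 43.6 to 56.5 FPKM with DMSO, with no overlap. Its log2 fold change of 0.48 (SE 0.08) passed on adjusted p (0.0147) but not on fold. Of 20 large chaperone genes 19 were above 0 (median 0.11), with hsp-70 at 0.39 (adjusted p = 0.0888). Of 9 tested small heat shock proteins 7 were above 0 (median 0.10) and none was called, with sip-1 at 0.33 (adjusted p = 0.0871) and hsp-12.3 at 0.52 (adjusted p = 0.154).

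Genes of protein synthesis and respiration gave no calls. Of 82 cytosolic ribosomal protein genes 78 were above 0 (median 0.19), none was called, and the median was 0.00 under quantile normalization, so this direction depends on the scaling. The 2 with the smallest p were rps-19 at 0.36 (adjusted p = 0.0461) and rps-12 at 0.32 (adjusted p = 0.0539). Of 63 mitochondrial ribosomal protein genes 62 were above 0 (median 0.13; 0.06 without further scaling and 0.09 under quantile normalization), with mrpl-37 at 0.23 (adjusted p = 0.0677) and mrpl-11 at 0.19 (adjusted p = 0.0718). Of 40 nuclear genes of the respiratory chain and ATP synthase 36 were above 0 (median 0.14), while of 11 genes encoded in mitochondria 6 were above and 5 below 0 (median 0.03). Of these nduf-5 at 0.31 (adjusted p = 0.0168) and nuo-3 at 0.25 (adjusted p = 0.0374), both complex I genes, passed on adjusted p but not on fold.

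**Figure D4:**
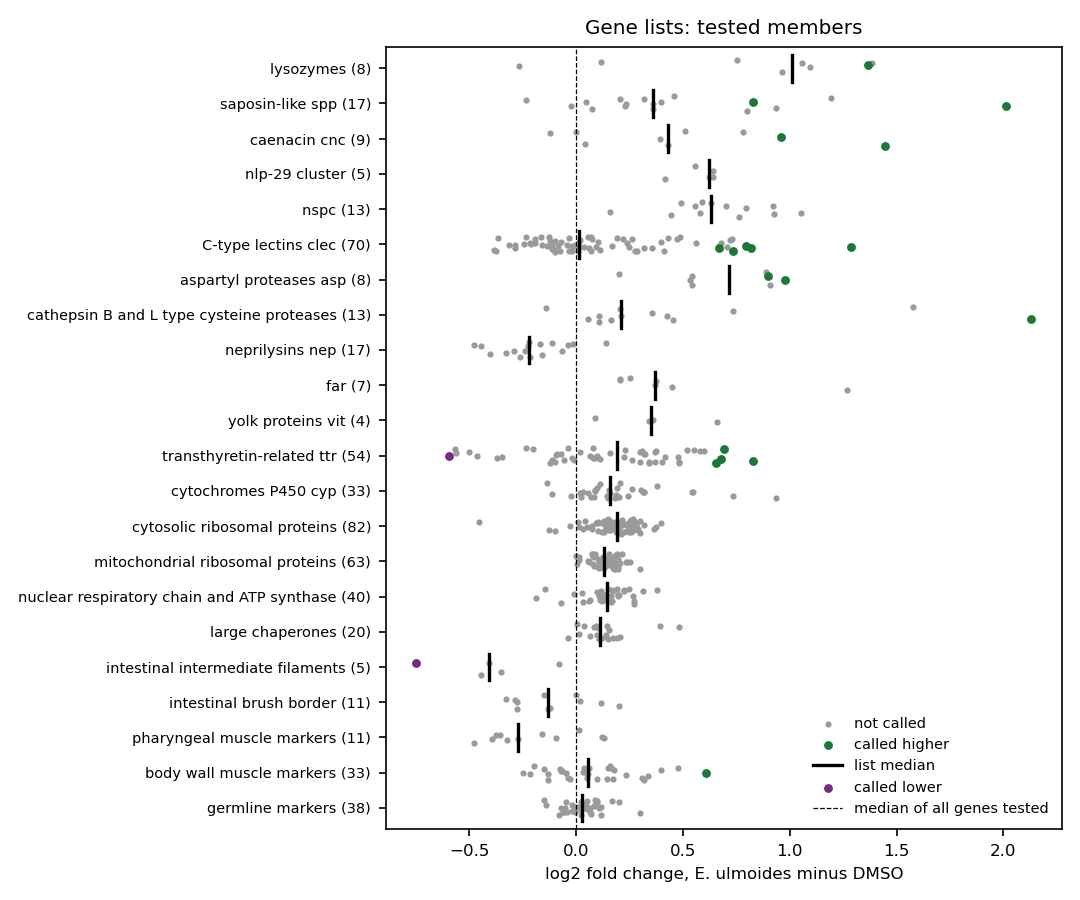
Log2 fold change of E. ulmoides minus DMSO (horizontal axis) for each tested member of 22 gene lists, with the number tested in brackets and the list median as a black bar. Green points were called higher and purple points lower; the dashed line is the median of all genes tested, and lysozymes, aspartyl proteases, nspc and nlp-29 cluster genes have medians above 0.60 while intestinal intermediate filaments have a median of -0.41.

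All 14 lower genes had every E. ulmoides library below every DMSO library, which held for 888 of all genes tested (6.86%). The opposite held for 29 of the 51 higher genes and for 153 of all genes tested (1.18%). The calls were made from these same libraries, so the overlap counts of called genes are not separate evidence. These overlaps were read on FPKM before scaling, where the median over the genes tested was -0.0733, so the lower and higher counts carry that offset. The largest fall among called genes was in C01G10.4 (chromosome V, 15089740 to 15090059, plus strand), with FPKM of 1.57, 2.16, 2.29, 3.90 and 2.68 with E. ulmoides, against 6.62, 7.84, 4.66, 6.65 and 7.78 with DMSO. Its log2 fold change was -1.22 (SE 0.20, adjusted p = 0.0118). Just downstream lies C01G10.17 (15090757 to 15091114, plus strand), which fell by 0.90 on the log2 scale (SE 0.16, adjusted p = 0.0147), with 1.86 to 2.50 FPKM with E. ulmoides and 3.87 to 5.70 FPKM with DMSO. The gap between these short genes is 698 bases, and they were the only called pair within 10000 bases that moved the same way. Both had few fragments, 20 to 41 per E. ulmoides library and 46 to 152 per DMSO library for C01G10.4.

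The firmest lower calls were F14H12.3, H02F09.3 and H43E16.1, which carry sequence names only. F14H12.3 had FPKM of 12.28, 12.26, 11.8, 12.4 and 11 with E. ulmoides, against 25.5, 18.2, 22.7, 23.8 and 22.9 with DMSO (log2 fold change -0.82, SE 0.12, adjusted p = 0.00661). H02F09.3 had FPKM of 1.4, 1.87, 1.76, 1.43 and 1.33 with E. ulmoides, against 3.61, 3.08, 2.84, 3.74 and 4.87 with DMSO (log2 fold change -0.94, SE 0.14, adjusted p = 0.00661). H43E16.1 had FPKM of 1.57, 1.94, 1.88, 1.76 and 1.79 with E. ulmoides, against 3.14, 3.14, 3.61, 3.13 and 3.41 with DMSO (log2 fold change -0.67, SE 0.09, adjusted p = 0.00477). In each the E. ulmoides libraries were tightly grouped. R07C12.1 also kept its call throughout, at -0.79 (adjusted p = 0.0156).

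Of the remaining lower genes, the thioredoxin gene trx-3, known as an intestinal member of this family of disulfide-reducing proteins, had FPKM of 10.8, 12.2, 12.7, 9.52 and 9.38 with E. ulmoides, against 17.8, 17.1, 16.3, 23.3 and 24.6 with DMSO. Its log2 fold change was -0.75 (SE 0.14, adjusted p = 0.0168), and it was the 1 called of 19 tested genes of the list for superoxide dismutases, catalases and peroxide-reducing proteins (median 0.05). It overlaps gbb-2 in the annotation. The nematode-specific peptide gene nspa-4 fell by 0.72 (adjusted p = 0.0337), with 16.8 to 32.1 FPKM with E. ulmoides and 36.1 to 46.6 FPKM with DMSO. The last were F09C6.1 at -0.96 (adjusted p = 0.0461), F59B10.3 at -0.91 (adjusted p = 0.0172), T12A2.3 at -0.67 (adjusted p = 0.0172) and C28C12.4 at -0.63 (adjusted p = 0.0177). With E. ulmoides F59B10.3 reached the minimum of 1 FPKM in replicate 3 alone, so it entered the test through its DMSO libraries.

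Of 8 genes for the intermediate filaments of the gut 5 were tested and 1 was called. All 5 had log2 fold changes below 0 (median -0.41), and in 4 of the 5 every E. ulmoides library was below every DMSO library, against 6.86% of all genes tested. The study itself listed ifd-2, ifc-2 and ifb-2 among genes lower on these same samples, so this count is not independent evidence. The filament gene ifd-2 (chromosome X, 813854 to 815929) had FPKM of 4.95, 4.72, 6.12, 4.36 and 4.6 with E. ulmoides, against 8.89, 8.21, 8.30, 8.51 and 11.6 with DMSO. Its log2 fold change was -0.75 (SE 0.14, adjusted p = 0.0172), and the call held in 7 of the 10 leave-one-out fits. For ifc-2, with 9.94 to 11.6 FPKM with E. ulmoides and 14.1 to 16.3 FPKM with DMSO, the log2 fold change was -0.41 (adjusted p = 0.0168), past the threshold on p only. For ifb-2 it was -0.45 (adjusted p = 0.0908).

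The summed FPKM of the 8 filament genes was 34.7 to 38.2 in E. ulmoides libraries and 47.8 to 60.0 in DMSO libraries. Of 11 brush border genes 8 were below 0 (median -0.13), with eps-8, an actin-capping protein of the microvilli, at -0.29 (adjusted p = 0.0477) and the peptide transporter gene pept-1 at -0.33 (adjusted p = 0.131). The 20 intestine markers as a whole, among which are asp-1 and cpr-1, summed to 287 to 353 FPKM with E. ulmoides and 229 to 338 FPKM with DMSO, and 8 of 18 tested were above 0 (median -0.06). None of these lists had a member at 0 in all 10 libraries. The part of tissue content in these differences was not tested.

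Markers of other tissues gave 1 call. Of 11 tested pharyngeal muscle markers 8 were below 0 (median -0.27), 6 had every E. ulmoides library below every DMSO library (6.86% of all genes did), and none was called, with pha-4 at -0.39 (adjusted p = 0.0585) and tnt-4 at -0.36 (adjusted p = 0.075), and the 14 genes summed to 336 to 361 FPKM with E. ulmoides and 343 to 366 FPKM with DMSO. Among 33 tested body wall muscle markers the median was 0.05, and the calponin gene cpn-3 was called at 0.61 (adjusted p = 0.0445). Of 38 germline markers 24 were above 0 (median 0.03), with fbf-2, an RNA-binding regulator of germline stem cells, at 0.30 (adjusted p = 0.0449) and him-8 at 0.17 (adjusted p = 0.24). Of 82 tested sperm genes 71 were below 0 (median -0.11), with spe-41 at -0.32 (adjusted p = 0.0475) and spe-8 at -0.30 (adjusted p = 0.0948). None of the oocyte, neuron or hypodermis markers was called, and their medians were -0.07, -0.06 and -0.06.

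Some further lists had members on both sides of 0. Of 17 tested neprilysins, membrane metallopeptidases that cleave small peptides, 16 were below 0 (median -0.22) and none was called, with nep-1 at -0.33 (adjusted p = 0.0172) and nep-10 at -0.44 (adjusted p = 0.0686). In 9 of the 17 every E. ulmoides library was below every DMSO library on FPKM before scaling, against 6.86% of all genes tested. The study listed nep-5, nep-10 and nep-22 among genes lower on these same samples, so this count is not independent evidence. Of 15 tested tetraspanins 11 were below 0 (median -0.05), with tsp-2 at -0.65 (adjusted p = 0.0814) and tsp-3 at -0.47 (adjusted p = 0.0689). Of 43 tested neuropeptide-like genes outside the nlp-29 cluster 25 were above 0 (median 0.01), and nlp-39 was called at 0.90 (adjusted p = 0.0337). Of 37 tested cuticle collagens 27 were above 0 (median 0.18) and none was called, with col-166 at 0.78 (adjusted p = 0.0835) and col-34 at 0.56 (adjusted p = 0.0837). Lysosomal genes were balanced, with 19 above and 14 below 0 (median 0.03), and the 2 with the smallest p were the cholesterol transporter genes ncr-2 at -0.27 (adjusted p = 0.0981) and ncr-1 at -0.28 (adjusted p = 0.094).

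The called genes were also described by position and length. All 65 are annotated as protein coding, as are 94.3% of the genes tested. Of the 51 higher genes 20 (39.2%) lie on chromosome V, against 2332 of the genes tested (18%), and 5 of the 14 lower genes (35.7%) do. The higher genes had a median annotated exon length of 698 bases and none above 1678, against a median of 1297 over the genes tested with an annotated length, 65.4% of which are no longer than 1678 bases. Length enters the FPKM, and its part in the calls was not tested. The median of the higher genes' mean FPKM was 10.11 with E. ulmoides and 4.40 with DMSO, values from which the calls were made.

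The study grouped genes of this comparison under annotation terms, and since it chose them on these samples, their direction is not independent evidence. Its 14 genes for proteolysis were all above 0 (median 0.54), and asp-1 and asp-5 were called. Beside those given above, asp-2 was at 0.89, cpr-5 at 0.73, nas-11 at 0.69, asp-3 at 0.54, asp-12 at 0.54, R09F10.1 at 0.45, nas-9 at 0.44, cpr-6 at 0.43, srp-1 at 0.39 and Y43F4A.1 at 0.37, none called. srp-1 belongs to the serpins, a family of protease inhibitors. Its 15 genes for adult lifespan were all above 0 (median 0.70) and 4 were called: acdh-1, ftn-1, thn-1 and T19B10.2, which was at 0.89 (adjusted p = 0.0374) and overlaps bgal-1 in the annotation. Of the rest, spp-1 was at 0.93, clec-186 at 0.73, asah-1 at 0.58 and ges-1 at 0.47.

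Its terms for genes lower with E. ulmoides held 21 genes, only a part of those it reported as lower. Of these 21, 19 were tested and all were below 0 (median -0.45), with ifd-2 and R07C12.1 called. hpo-6 at -0.49 (adjusted p = 0.033), F19C7.2 at -0.55 (adjusted p = 0.0204) and ifc-2 passed on adjusted p only. The others were tsp-1 at -0.57, nep-5 at -0.48, csp-2 at -0.46, ZK930.6 at -0.45, C39H7.4 at -0.45, pcp-3 at -0.43, K04A8.1 at -0.42, C44B12.6 at -0.41, nep-22 at -0.40 and F08F3.4 at -0.37, while ZK430.5 and Y52D5A.2 did not reach the FPKM minimum. A few genes were measured on their own in the study by PCR. In the libraries hsp-12.6 was at 0.60 (adjusted p = 0.175), ins-23 at -0.45 (adjusted p = 0.419) and hsp-16.2 at 0.09 (adjusted p = 0.735), and hsp-16.1 did not reach the minimum. The log2 fold changes of act-1 (actin), daf-21 (an HSP90 chaperone) and cdc-42 (a small GTPase) were 0.09, 0.08 and 0.02.

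The extracts were also set against each other directly, with all 5 libraries of each. E. ulmoides was higher than C. chinensis in 674 genes (5.2%) and lower in 2089 (16.1%), 21.3% of genes tested in all. Against the same DMSO libraries, which both comparisons share, C. chinensis was higher in 2107 genes (16.3%) and lower in 418 (3.23%). All these counts are over the 12951 genes chosen on the E. ulmoides and DMSO libraries. Genes that reached the FPKM minimum only with C. chinensis are therefore not counted. Of the 65 genes called against DMSO, 40 (61.5%) differed between the extracts, 2 higher and 38 lower with E. ulmoides than with C. chinensis, and 25 were not called. The same 5 E. ulmoides libraries enter both comparisons, so these counts are not independent of the calls against DMSO. Among the 51 higher genes 30 were lower with E. ulmoides than with C. chinensis. For spp-9 the difference between the extracts was -3.06 on the log2 scale (adjusted p = 1.2e-05), for cnc-6 -1.24 (adjusted p = 0.00019) and for ftn-1 -0.79 (adjusted p = 0.00024).

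The protease gene cpr-2 and F49H12.7 were the 2 higher genes that exceeded C. chinensis. cpr-2 averaged 6.11 ± 2.11 FPKM with E. ulmoides, 3.07 ± 1.56 with C. chinensis and 1.14 ± 0.755 with DMSO (SD, n = 5 each), and E. ulmoides minus C. chinensis was 1.17 (SE 0.34, adjusted p = 0.0059). F49H12.7, which overlaps acl-4, averaged 2.56 ± 0.218 FPKM with E. ulmoides, 1.79 ± 0.723 with C. chinensis and 1.25 ± 0.283 with DMSO, with a log2 fold change of 0.88 against DMSO (adjusted p = 0.0156) and 0.64 against C. chinensis (adjusted p = 0.0015). Of the 14 lower genes, which were called for low values in these same E. ulmoides libraries, 8 were also lower than with C. chinensis: C01G10.17 (-1.38), C01G10.4 (-1.18), R07C12.1 (-0.98), ifd-2 (-0.92), F09C6.1 (-0.89), C28C12.4 (-0.71), F14H12.3 (-0.68) and H43E16.1 (-0.62). For ifd-2 the means were 4.95 ± 0.688 FPKM with E. ulmoides, 11.5 ± 2.60 with C. chinensis and 9.11 ± 1.42 with DMSO. Of genes not called between the extracts, nspa-4 differed by -0.02, try-8 by 0.01 and trx-3 by -0.19, which does not show that the extracts act alike on them.

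**Figure D5:**
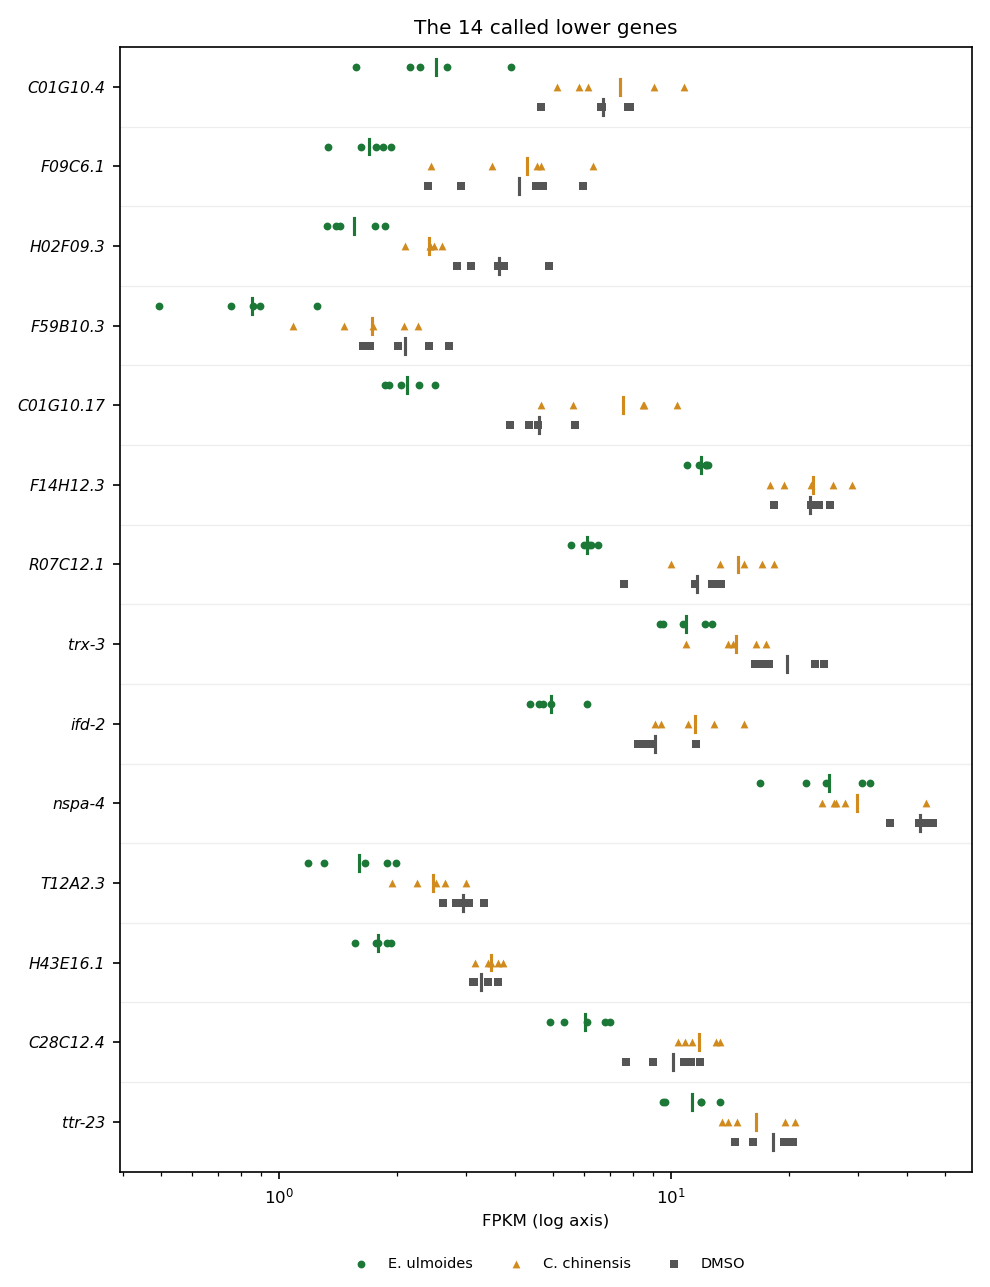
FPKM in each library (horizontal log axis) of the 14 called lower genes, with E. ulmoides libraries as green circles, C. chinensis libraries as orange triangles and DMSO libraries as grey squares, and short bars at the group means. In every gene the E. ulmoides points lie left of the DMSO points, and for ifd-2 they average 4.95 FPKM, against 11.5 with C. chinensis and 9.11 with DMSO.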

How the data were processed

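The authors deposited 1 table of FPKM with a column for each paired-end library, and the submitters' processing notes name HISAT2 and the genome build WBcel235. The counting tool and annotation release are not given in the sources used here. Fragment counts were estimated from the deposited values: library totals came from the smallest steps of genes 21 bases long, and gene lengths were the annotated exon length or else the smallest that gave whole fragments in every library (tolerance 0.0001). Whole numbers therefore follow from the construction, 10628 of 26686 lengths equalled the annotated one, and fragment numbers of single genes and the voom fit are estimates. FPKM were scaled by a trimmed mean of M values (30% of M and 5% of A trimmed), and log2(scaled FPKM + 0.5) was fitted over all 15 libraries with limma 3.58.1 in R 4.3.3, with 12 residual degrees of freedom. The 0.5 makes fold changes of weak genes smaller than ratios of FPKM. Overlap between groups was read on the deposited FPKM. The fit was tested on simulated data. Python 3.11.15, pandas 2.3.3 and numpy 2.4.6 prepared the tables, and positions came from Ensembl release 115 (99.4% of genes matched).

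Named are the 15 higher and 15 lower calls of largest fold (all 14 lower ones here), for every list described the 4 largest calls or else the 2 smallest p, genes from the study's text and terms, the 5 smallest p of all genes, called genes that differ between extracts and lie further from DMSO with E. ulmoides, and up to 5 called genes with an outlying library. Members, lists and tests were chosen with earlier results of these data known. Alternatives covered scaling, pseudocount, filter, libraries, blocks, test and fold limits, and 1 of them, leaving out the 4 deepest libraries, was chosen after seeing the data. Errors are over libraries, and intervals for counting error are not given. All per-sample columns were mapped. Sequences were not used here.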

Additional observations from a re-analysis of the deposited data

Results flagged for a closer look

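Among the 126 named genes, 252 groups of 5 libraries were examined for a library far from the rest (gap to the nearest library over the range of the group above 0.71, on scaled log2 values), and 10 met this. Chance alone marks about 1 in 20 groups, which is 5%. In E. ulmoides, replicate 3 was low for cpr-1 (gap 0.951 of the range, 31.2 FPKM against 51.65 to 54.2 in the others) and for asah-1 (0.804, 2.21 FPKM against 3.46 to 3.75), and replicate 4 was high for ins-31 (0.802, 3.25 FPKM against 1.24 to 1.5). In DMSO, replicate 2 was high for cpn-3 (0.947, 24.8 FPKM against 18.1 to 19.4) and ttr-32 (0.746, 18.3 FPKM against 9.57 to 11.2), and low for cdc-42 (0.763, 188.7 FPKM against 193 to 206). It was also low for mrpl-11 on the scaled values (0.767), but not on the FPKM (95.85 against 95.4 to 101). DMSO replicate 1 was low for nspa-4 (0.822, 36.1 FPKM against 43 to 46.6) and asp-12 (0.752, 1.26 FPKM against 1.81 to 2.15), and DMSO replicate 5 was high for ifd-2 (0.732, 11.6 FPKM against 8.21 to 8.89).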

How the results depend on the processing

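All 65 called genes kept their direction in every alternative in which they were tested, but the number called did not hold. The alternatives reused the libraries from which the genes were called, so the kept direction is not separate evidence. Beside 51 higher and 14 lower genes, no further scaling gave 23 higher and 26 lower (46.9% of calls higher, against 78.5%), no filter on low values 3 and 3, a mean FPKM of at least 5 gave 24 and 7, and the 10 libraries alone 79 and 24. A minimum of 1 FPKM in 5 of all 15 libraries gave 153 higher genes, and limma's voom on the recovered fragments 135. Without a fold limit there were 86 higher and 42 lower, and with limits of 2 and 0.5 there were 12 and 1. An exact Wilcoxon rank-sum test gave 0 higher and 0 lower genes (2090 at an unadjusted p under 0.05, lowest adjusted p 0.127). With 5 against 5 libraries the smallest unadjusted p this test can give is 0.0079, which limits what its 0 calls can show. Leaving out each replicate gave 10 to 117 higher and 8 to 27 lower genes. Of the genes called, 61.5% differed between the extracts, and 50% to 72.2% did with single replicates left out. That share was 79.8% without the 4 deepest libraries, a setting chosen after seeing the data, 81.2% without a fold limit, and between 50% and 70.8% in the other settings but the code block below. Same-numbered libraries did not deviate together (correlations between -0.06 and 0.09). The labels do not say whether the numbers pair libraries, and correlations near 0 cannot settle it. A replicate block gave 21 higher and 11 lower genes, and a block by library code number 1 and 0, with 100% of that 1 call differing. Among named genes, hsp-16.2 reversed to -0.0255 with the code block and -0.0692 without the 4 deepest libraries, and daf-21 to -0.0695 under quantile normalization and -0.013 with the code block. cdc-42 reversed to -0.0569 without further scaling and -0.041 under quantile normalization, and lay between -0.0082 and 0.0452 with single libraries left out. None of these 3 was called. Apart from the genes and libraries that a setting itself adds or removes, the cause of these changes was not tested. Depth limits weak genes: in 4 of the called genes some library had 10 or fewer fragments. That replicates were separate cultures is known only from their label as biological replicates.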

Other observations

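Past 2-fold but not called lay 24 genes, 16 with higher and 8 with lower values. The pair given here, picked after the values were seen, was set by few libraries. The peptide gene nspa-7 had FPKM of 2.51, 0.722, 14.7, 0.458 and 0.427 with E. ulmoides, against 22.6, 38.9, 23.5, 2.01 and 21.8 with DMSO (log2 fold change -2.87, SE 0.91, adjusted p = 0.127). E. ulmoides replicate 3 and DMSO replicate 4 lay apart from their groups. W09B7.2 had FPKM of 8.82, 44.3, 3.95, 9.98 and 15 with E. ulmoides, against 3.76, 3.90, 2.72, 4.35 and 3.77 with DMSO (log2 fold change 1.66, SE 0.40, adjusted p = 0.0533). Of 12 nspa genes, 8 were tested, 6 had a log2 fold change below 0 (median -0.39), and nspa-4 was the 1 called. The family's largest standard error was that of nspa-3 (1.02), with 1.69 to 85 FPKM in E. ulmoides libraries and 2.48 to 68.7 FPKM in DMSO libraries. How reads were divided among related copies of this family was not tested.

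A wide spread within the DMSO group recurred in 4 digestive or defence genes, also picked after their values were seen. DMSO replicates 1 to 5 had 6.30, 45.6, 38.2, 15.2 and 6.69 FPKM of cpr-1 and 50.7, 219, 181, 161 and 67.8 FPKM of lys-7. For spp-2 they had 3.81, 21.6, 18.4, 10.6 and 4.26 FPKM, and for lys-4 0.676, 5.07, 4.08, 2.11 and 1.05 FPKM. In each gene replicates 1 and 5 were lowest, replicates 2 and 3 highest and replicate 4 between them. The E. ulmoides libraries had 16.95 to 25.1 FPKM of spp-2 and 3.18 to 5.93 FPKM of lys-4.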
